A study of Mus musculus with 59 samples.

Results

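The feeding centres of the mouse brain, the hypothalamic arcuate nucleus (ARC) and the nucleus tractus solitarii (NTS) of the medulla, were compared in mice given vehicle only, across every gene with enough counts to be tested. The comparison uses 19 of the 59 libraries of the series: 9 carry a label for vehicle ARC and 10 a label for vehicle NTS, and these labels alone chose them. All came from C57BL/6 mice that received an intraperitoneal injection of vehicle and were killed 4 h later. The labels give neither age, sex nor diet, and do not say whether these animals were of the obese and diabetic kind that the series' title names. Frozen brains were cut into sections of 10 µm, and laser capture took 4 mm² of each region from each animal, so that a library holds neurons, glia, vessels and passing fibres together. PolyA RNA was sequenced after a stranded mRNA library preparation. The series itself asks what the agent labelled IP118/PY115 does in feeding areas of the brain, in work on peptides that act on PYY and GLP-1 receptors together, and also holds the paraventricular nucleus (PVN). Its treated ARC and NTS libraries, 10 of each, serve here only to repeat the comparison. The labels tie no library to an animal, although every region was taken from each animal, so ARC and NTS libraries share animals, and each p-value takes the libraries as independent and measures the spread between them.

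The ARC lies at the base of the hypothalamus beside the median eminence, where the barrier to the blood is open. Its neurons that make agouti-related peptide and neuropeptide Y drive feeding, its proopiomelanocortin neurons restrain it, and both read leptin, insulin and ghrelin. The NTS lies in the dorsal medulla, receives the sensory fibres of the vagus nerve, and sends satiety and visceral signals forward through noradrenaline, glucagon-like peptide-1 and other transmitters. The ARC arises from the ventral forebrain and the NTS from the caudal hindbrain, where Hox genes set position along the axis of the embryo.

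The proximal promoters of 4 genes with some of the largest differences are shown here, because each belongs to a group described in the results: Pomc and Npy, higher in ARC, and Dbh and Hoxa5, lower in ARC. Each is the 250 bases before the annotated start in RefSeq (GRCm38.p6), written 5′ to 3′ on the gene's strand: Pomc at chr12:3954695-3954944 (plus strand), Npy at chr6:49822460-49822709 (plus), Dbh at chr2:27165257-27165506 (plus) and Hoxa5 at chr6:52204588-52204837 (minus). Capitals mark matches on either strand to TATAAA, the core of the TATA box, and to ATTA, a core that many homeodomain proteins bind.
Pomc: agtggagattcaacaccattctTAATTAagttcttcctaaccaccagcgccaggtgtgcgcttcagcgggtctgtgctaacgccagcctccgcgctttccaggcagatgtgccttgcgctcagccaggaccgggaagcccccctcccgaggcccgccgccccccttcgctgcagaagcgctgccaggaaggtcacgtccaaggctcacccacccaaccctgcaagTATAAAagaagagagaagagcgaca
Npy: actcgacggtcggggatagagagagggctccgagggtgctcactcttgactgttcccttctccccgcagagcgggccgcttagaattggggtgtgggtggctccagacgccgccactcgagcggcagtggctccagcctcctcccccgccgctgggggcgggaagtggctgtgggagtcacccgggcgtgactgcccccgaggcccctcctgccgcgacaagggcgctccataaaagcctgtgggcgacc
Dbh: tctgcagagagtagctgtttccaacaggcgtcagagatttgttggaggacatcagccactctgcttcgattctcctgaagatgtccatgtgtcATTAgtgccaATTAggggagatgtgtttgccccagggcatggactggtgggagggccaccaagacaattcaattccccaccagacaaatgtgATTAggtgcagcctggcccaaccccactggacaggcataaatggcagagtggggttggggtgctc
Hoxa5: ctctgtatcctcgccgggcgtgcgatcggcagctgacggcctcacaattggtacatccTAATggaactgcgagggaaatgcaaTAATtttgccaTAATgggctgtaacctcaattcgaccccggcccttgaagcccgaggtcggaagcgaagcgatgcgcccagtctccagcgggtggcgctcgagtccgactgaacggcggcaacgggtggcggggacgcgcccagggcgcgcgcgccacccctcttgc
The Pomc window holds TATAAA 25 bases before the start and 2 overlapping ATTA matches at 228 and 226 bases. The Npy window holds neither motif. Dbh has ATTA at 157, 147 and 65 bases, and Hoxa5 has it at 192, 167 and 156 bases. Among 32851 such mouse promoter windows, 12.4% hold TATAAA, 54.9% hold ATTA, and 17.3% hold 3 or more ATTA matches. These matches describe letters only.

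Library totals ran from 4546257 to 11995799 counts in ARC, with a median of 10392473, and from 6677086 to 27766549 in NTS, with a median of 11018067.5. The mean log10 total was 6.97 ± 0.13 in ARC and 7.05 ± 0.20 in NTS (SD, n = 9 and 10), a difference of -0.08 that an exact two-sided permutation test did not separate from 0 (p = 0.315). Correlations of log2 CPM were 0.973 to 0.992 within a region and 0.909 to 0.937 between regions, and no 2 libraries held identical values. The first principal component, with 67.3% of the variance, separated the 2 regions. Every ARC library carried Nkx2-1 and none Hoxa5, and every NTS library carried Hoxa5 and none Nkx2-1. Several libraries stood apart within their region. NTS libraries 7 and 8, with sample numbers 5738 and 5739, lay at the far end of the next component, which held 4.79% of the variance. NTS library 1 carried the activity gene Fos at 75.3 CPM, against 6.97 to 27.1 CPM in the other NTS libraries. Results that rest on such a library are given with and without it, and all others keep every library. ARC samples are numbered 5509 to 5522, 5556 and 5557, and NTS samples 5726 to 5743, so a difference in handling between number blocks cannot be told apart from the region.

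The regions differed widely. Of 14379 tested genes, 8874 (61.7%) were called at a Benjamini-Hochberg adjusted p under 0.05 by edgeR's quasi-likelihood test: 4345 were higher in ARC (30.2%) and 4529 lower (31.5%). Most of these differences were small, since 6649 of the called genes (74.9%) differed by less than 2-fold and the median size over all tested genes was 0.32 on the log2 scale. A test against a 2-fold change left 1295 genes (9.01%), of which 459 were higher in ARC (3.19%) and 836 were lower (5.81%). In 3256 genes (22.6%) no ARC library overlapped any NTS library, and 1110 of the 1295 genes past 2-fold were among them. The median log2 fold change over all tested genes was -0.01. Counts of list members below are to be read against these shares of all tested genes. Throughout, levels are CPM, counts scaled to a common library size with TMM factors, 3 CPM values given together are the lowest, the median and the highest library, fold changes are log2 values of ARC over NTS ± SE, and a gene "past 2-fold" passed the test against that size. The naming of genes followed a rule on size, level and list membership; genes named outside it are said to have been picked after their values were seen.

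**Figure D1:**
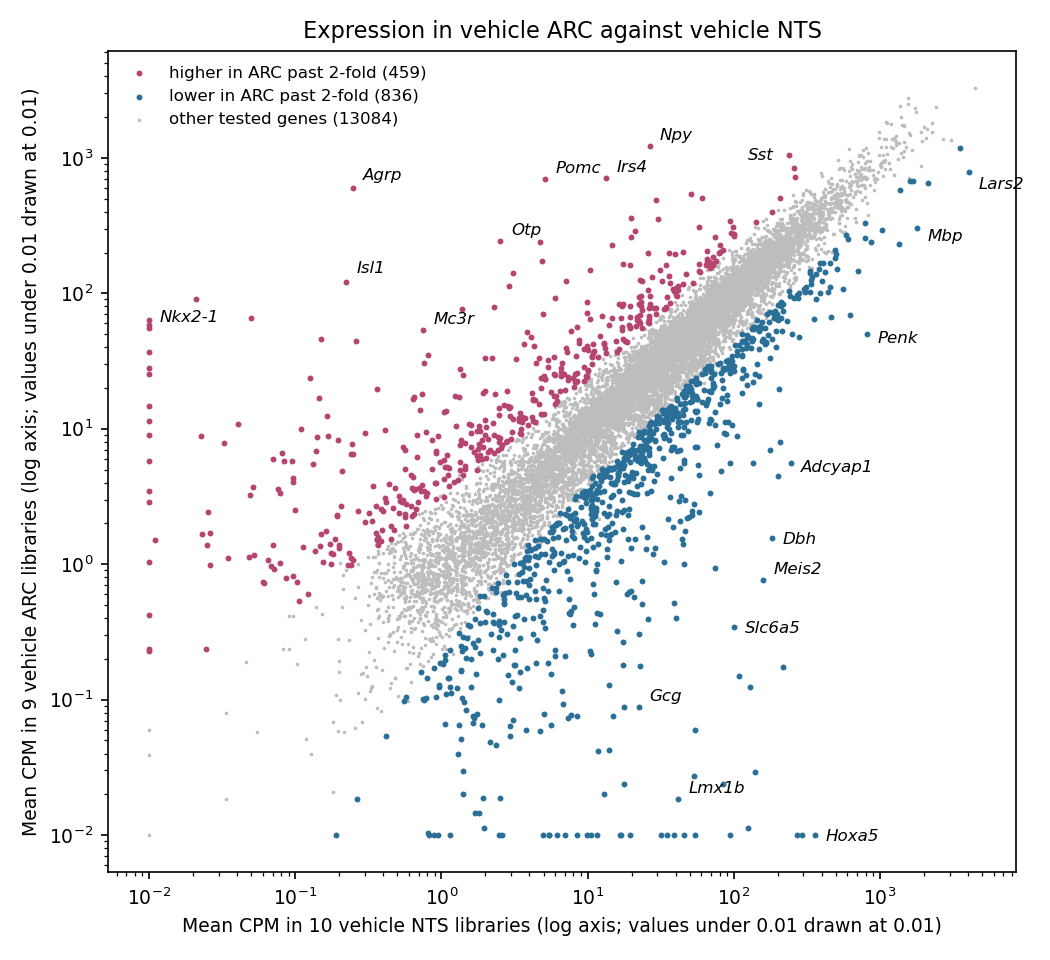
Each point is a tested gene, with its mean CPM in the 9 vehicle ARC libraries on the vertical log axis and in the 10 vehicle NTS libraries on the horizontal log axis. The 459 genes higher in ARC past 2-fold are red, the 836 lower past 2-fold are blue and all others are grey; Agrp, Pomc and Nkx2-1 lie toward the upper left, and Hoxa5, Lmx1b and Dbh toward the lower right.

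At the far ends of this spread 23 genes past 2-fold had no count in any ARC library and 13 had none in any NTS library. Glial markers moved with the region as well. The summed level of 17 mature oligodendrocyte genes was 519 to 1417 CPM in ARC libraries and 2387 to 7204 CPM in NTS libraries, and that of 17 astrocyte genes was 2983 to 4316 CPM in ARC and 6938 to 10145 CPM in NTS. A score of the oligodendrocyte genes per library averaged 4.00 ± 0.44 in ARC and 6.27 ± 0.53 in NTS (mean log2 of CPM plus a constant, SD), and 85.8% of its variance lay between the regions. The fit used another form of that score, the mean of the same genes on edgeR's log2 CPM scale. With this form, called the oligodendrocyte score below, as a covariate in the 19 libraries, 2321 genes were called and 454 lay past 2-fold. Of 1174 genes past 2-fold that could be followed into that fit, 439 stayed past 2-fold and 877 stayed called. Score and region cannot be told apart in this design, and the part of glial content in single results was not tested beyond that fit. In such bulk tissue, fewer cells of a type and less RNA per cell cannot be told apart either.

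The peptides that define feeding neurons of the ARC were among its largest differences from the NTS. Agrp (chr8:105566698-105637393 in GRCm38, GENCODE vM21), which encodes agouti-related peptide, an antagonist at melanocortin receptors that drives feeding, had 485, 516 and 978 CPM in ARC libraries, against 0.0669, 0.226 and 0.565 CPM in NTS libraries. No library of a region came near the other, and the log2 fold change was 11.22 ± 0.24 (edgeR adjusted p = 3.03e-43). Pomc (chr12:3954951-3960642), the precursor of the melanocortin satiety peptides and beta-endorphin, had 576, 683 and 926 CPM in ARC libraries, against 3.58, 4.88 and 6.84 CPM in NTS libraries, a log2 fold change of 7.10 ± 0.16 (edgeR adjusted p = 2.39e-42). Npy (chr6:49822710-49829507), the gene of the appetite-stimulating neuropeptide Y, had 913, 1099 and 1907 CPM in ARC libraries, against 21.5, 26.9 and 30.6 CPM in NTS libraries, a log2 fold change of 5.52 ± 0.21 (edgeR adjusted p = 5.35e-30). For all 3 genes the regions did not overlap, but Npy and Pomc were detected in every NTS library. Ghrh, which releases growth hormone from the pituitary, had 53.1, 81.4 and 87.1 CPM in ARC libraries, against 0.201, 1.38 and 2.43 CPM in NTS libraries, a log2 fold change of 5.80 ± 0.23 (edgeR adjusted p = 4.12e-30). Tac2, which encodes neurokinin B of the neurons that pace reproductive hormones, had 106, 137 and 191 CPM in ARC libraries, against 0.669, 3.04 and 5.39 CPM in NTS libraries, a log2 fold change of 5.53 ± 0.22 (edgeR adjusted p = 5.87e-30). Neither gene overlapped between regions. Cartpt, the precursor of the appetite-restraining CART peptide, is made in both nuclei. It had 190.2, 269 and 333 CPM in ARC libraries, against 140.0, 314 and 408 CPM in NTS libraries. The regions overlapped across most of their range, and the log2 fold change of -0.18 ± 0.15 did not pass (edgeR adjusted p = 0.298, 95% interval -0.49 to 0.12).

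**Figure D2:**
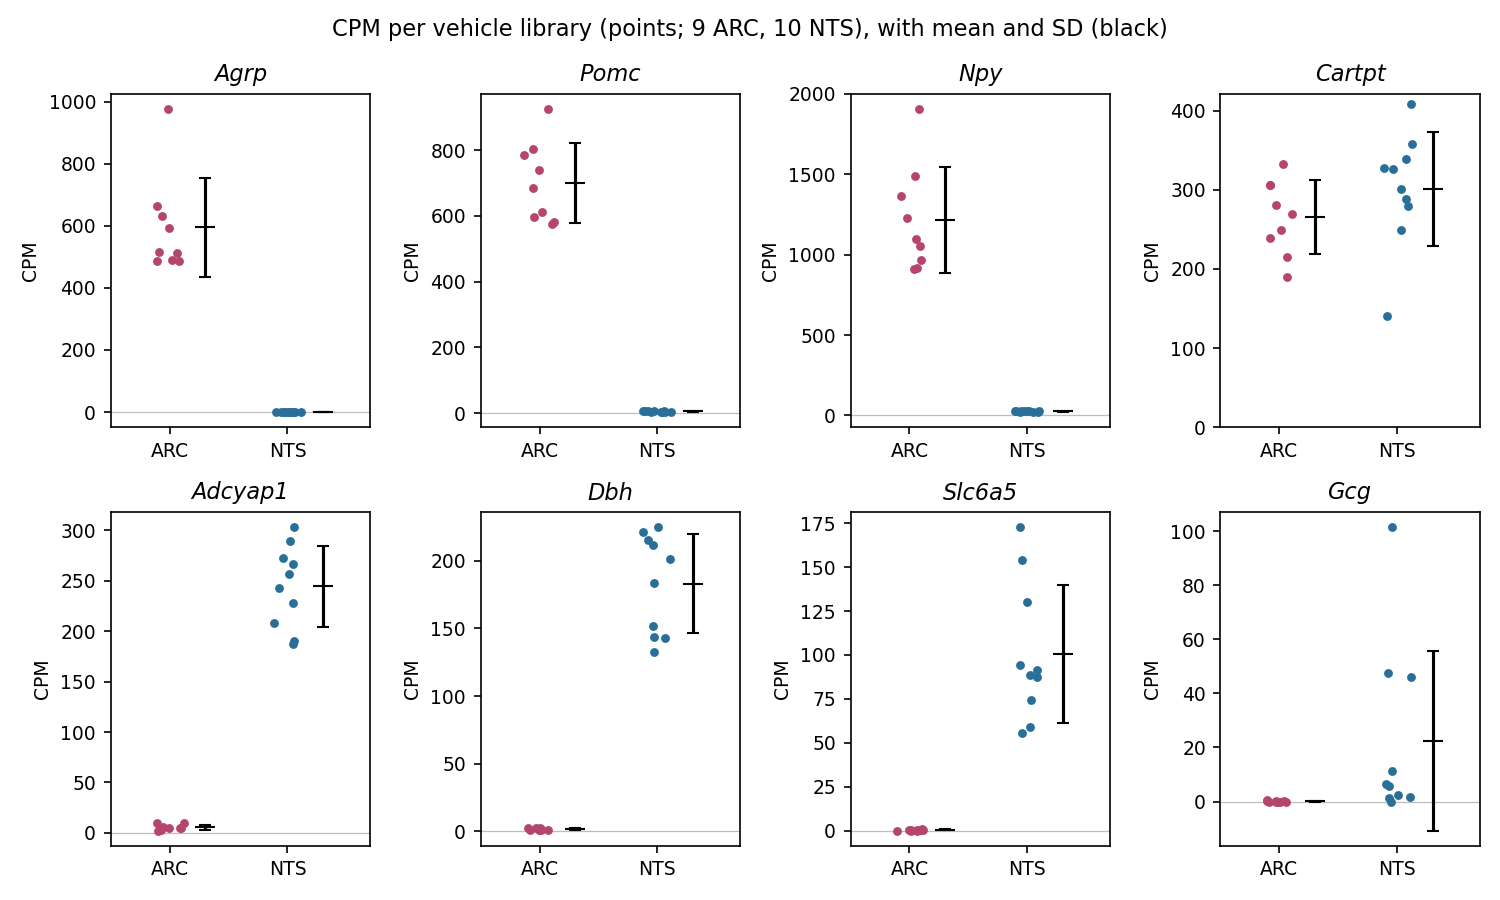
Points are CPM of single vehicle libraries (9 ARC on the left of each panel, 10 NTS on the right) on a linear axis, with the mean and SD in black. Agrp, Pomc and Npy sit high in ARC, Adcyap1, Dbh and Slc6a5 sit high in NTS, Cartpt overlaps, and Gcg in NTS runs from 0 to 101 CPM.

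Over the list of peptides known from the ARC and the enzymes and granins that process them, 25 of 27 measured members had enough counts to be tested. Of these, 11 were higher in ARC and 11 were lower, against 30.2% and 31.5% of all genes, and 3 did not pass, with 7 higher and 5 lower past 2-fold and a median of -0.12, against -0.01 over all genes. Sst, the gene of somatostatin, which blocks hormone release, had 691, 833 and 1064 CPM in ARC libraries, against 210.1, 239 and 369 CPM in NTS libraries, a log2 fold change of 1.71 ± 0.19 (edgeR adjusted p = 1.38e-11). All ARC libraries lay above all NTS libraries, although the NTS level was well above 0. Penk went the other way: the enkephalin precursor had 39.7, 44.1 and 65 CPM in ARC libraries, against 729, 817 and 956 CPM in NTS libraries, a log2 fold change of -4.02 ± 0.13 (edgeR adjusted p = 7.04e-34). Nmu, the gene of the satiety peptide neuromedin U, had 0, 0.801 and 1.94 CPM in ARC libraries, against 13.5, 25.1 and 29.4 CPM in NTS libraries, a log2 fold change of -5.05 ± 0.30 (edgeR adjusted p = 1.03e-22). Crh, the gene of corticotropin-releasing hormone, had 0, 0 and 0.178 CPM in ARC libraries, against 1.17, 2.99 and 4.19 CPM in NTS libraries, a log2 fold change of -5.54 ± 1.27 (edgeR adjusted p = 0.000171). Its ARC libraries were at or near 0 and its NTS libraries low but separate from them, whereas vehicle PVN libraries averaged 213 ± 52.3 CPM. Of the processing genes, Pcsk2, a convertase that cuts peptide precursors, averaged 176 ± 16.3 CPM in ARC and 294 ± 20.7 CPM in NTS, a log2 fold change of -0.74 ± 0.06 (edgeR adjusted p = 1.18e-17), and Scg3, a granin of secretory granules, averaged 379.8 ± 15.2 CPM in ARC and 552 ± 37.4 CPM in NTS, a log2 fold change of -0.54 ± 0.04 (edgeR adjusted p = 1.27e-17). Picked after its values were seen, Trh, the gene of thyrotropin-releasing hormone, averaged 16.9 ± 6.55 CPM in ARC and 0.145 ± 0.196 CPM in NTS, a log2 fold change of 6.74 ± 0.95 (edgeR adjusted p = 1.49e-08). Gal, the gene of galanin, also picked afterwards, averaged 132 ± 19.5 CPM in ARC and 342 ± 104 CPM in NTS, a log2 fold change of -1.37 ± 0.14 (edgeR adjusted p = 1.25e-12).

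Transcription factors that pattern the hypothalamus were high in ARC and low or at 0 in NTS. Of 38 listed factors 33 were tested, 28 were higher in ARC and 27 of them past 2-fold, against 30.2% and 3.19% of all genes. Of the 33, 8 had no count in any NTS library. These, and members near 0 in NTS such as Six3, Dlx1 and Dlx2, could enter the test only through other libraries, so that share was partly fixed. Their median log2 fold change was 6.00, or 6.89 with the oligodendrocyte score, and their summed level was 1012 to 1181 CPM in ARC and 14.7 to 33 CPM in NTS. Nkx2-1 (chr12:56531958-56536908), which specifies the ventral hypothalamus, had 44.4, 52.5 and 68.3 CPM in ARC and no count in any NTS library, at least 2329-fold higher (edgeR adjusted p = 3.09e-34). Six6, of the sine oculis homeodomain family that builds the eye and ventral forebrain, had 49.2, 59.3 and 82.9 CPM in ARC and no NTS count, at least 2643-fold higher (edgeR adjusted p = 1.54e-23). Bsx, a homeodomain factor of Agrp and Npy neurons, had 51.2, 59.4 and 62.9 CPM in ARC and likewise no NTS count, at least 2446-fold higher (edgeR adjusted p = 1.09e-34). These bounds set the NTS level at 3 counts over the 10 libraries. Six3, a close relative of Six6, had 72.7, 95.3 and 102 CPM in ARC libraries, against 0, 0 and 0.141 CPM in NTS libraries, a log2 fold change of 11.72 ± 0.28 (edgeR adjusted p = 9.65e-44). Dlx1 and Dlx2, factors of forebrain GABA neurons that lie next to each other on chromosome 2, averaged 65.2 and 28.3 CPM in ARC against 0.050 and 0.00669 CPM in NTS, with log2 fold changes of 10.32 ± 0.26 and 10.55 ± 0.40. Otp, needed to form neuroendocrine neurons, had 203, 249 and 296 CPM in ARC libraries, against 1.12, 2.52 and 3.8 CPM in NTS libraries, a log2 fold change of 6.62 ± 0.16 (edgeR adjusted p = 4.79e-42). Isl1, a LIM homeodomain factor of Pomc neurons, had 103, 127 and 134 CPM in ARC libraries, against 0, 0.0421 and 1.14 CPM in NTS libraries, a log2 fold change of 9.07 ± 0.28 (edgeR adjusted p = 8.16e-36). For each of these the lowest ARC library lay far above the highest NTS library; without NTS library 4 Dlx2 was 11.34, and without NTS library 2 Isl1 was 9.76. Tbx3, a T-box factor that keeps the identity of ARC peptide neurons, had 151, 175 and 211 CPM in ARC libraries, against 3.39, 4.1 and 8.68 CPM in NTS libraries, a log2 fold change of 5.15 ± 0.15 (edgeR adjusted p = 1.15e-37). Nr5a2, a nuclear receptor, had 31, 45.2 and 61.1 CPM in ARC libraries, against 0, 0.0259 and 0.988 CPM in NTS libraries, a log2 fold change of 7.75 ± 0.35 (edgeR adjusted p = 2.36e-27). Only Nkx2-2 and Lhx9 of the tested members fell in ARC. Nkx2-2, which also marks oligodendrocyte precursors, averaged 5.52 ± 1.38 CPM in ARC and 7.67 ± 2.11 CPM in NTS, a log2 fold change of -0.49 ± 0.17 (edgeR adjusted p = 0.0109). Lhx9 averaged 0.924 ± 1.33 CPM in ARC and 2.58 ± 1.93 CPM in NTS with overlapping regions, a log2 fold change of -1.40 ± 0.52 (edgeR adjusted p = 0.0174); without ARC library 8 it was -2.26, and in the fit of the 19 libraries alone it was not called.

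Hox genes separated the regions completely. All 39 Hox genes of the 4 clusters together gave 43 counts over the 9 ARC libraries and 152765 counts over the 10 NTS libraries. The sum per library was 0.17 to 0.861 CPM in ARC and 1078 to 1383 CPM in NTS. Of the 39 genes, 18 had enough counts to be tested and all 18 were lower in ARC past 2-fold, against 5.81% of all genes; they could enter the test only through their NTS level. Their median fitted log2 fold change was -10.59, or -10.21 with genes at 0 in ARC set at their bound. Hoxa5 (chr6:52201754-52204587) had no count in any ARC library and 305, 347 and 422 CPM in NTS libraries, at least 10609.8-fold lower (edgeR adjusted p = 6.10e-40). Hoxb5 (chr11:96303336-96306121) had no ARC count and 246, 305 and 349.9 CPM in NTS, at least 8704-fold lower (edgeR adjusted p = 1.26e-48). Hoxc4 had 0, 0 and 0.102 CPM in ARC and 103, 124 and 152 CPM in NTS, a log2 fold change of -12.45 ± 0.21 (edgeR adjusted p = 2.27e-47); its ARC level was 0 in all but 1 library. Fitted values this large rest on a few ARC counts: without ARC library 7, which held them, Hoxc4 moved to -13.48, and Hoxb4 moved to -12.92 without ARC library 2. Bounds for genes with no ARC count were at least 2798-fold for Hoxb3, 1599.5-fold for Hoxc5, 1353-fold for Hoxa4 and 1153-fold for Hoxb6.

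Within NTS the Hox genes with a measurable level fell almost entirely into paralog groups 2 to 8, a number that tracks position along the embryonic axis. Of the 20 genes of paralog groups 2 to 8, 17 were among the 18 tested. Per kb of exon, the mean NTS level was 191 CPM for Hoxa5, 106 for Hoxb5, 48.5 for Hoxc4, 32.8 for Hoxb4 and 28.8 for Hoxa4. Hoxb3 reached 22.3 CPM per kb, Hoxb6 reached 19.9 and Hoxc5 reached 17.5. Group 5 held the 2 highest levels per length. Further toward the tail, Hoxb7 had 3.99 and Hoxb8 4.37 CPM per kb, while Hoxb9 did not exceed 0.0518 CPM in any NTS library. Among the 21 untested genes the highest mean NTS level was 0.934 CPM, and 8 had no count in any of the 19 libraries. By cluster, the summed NTS level per kb was 239.9 CPM for Hoxa, 205 for Hoxb, 67.1 for Hoxc and 6.22 for Hoxd. Neighbouring and antisense transcripts overlap within these clusters and the strand setting of the counting is not given, so reads of a Hox gene and of an overlapping partner cannot be told apart.

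**Figure D3:**
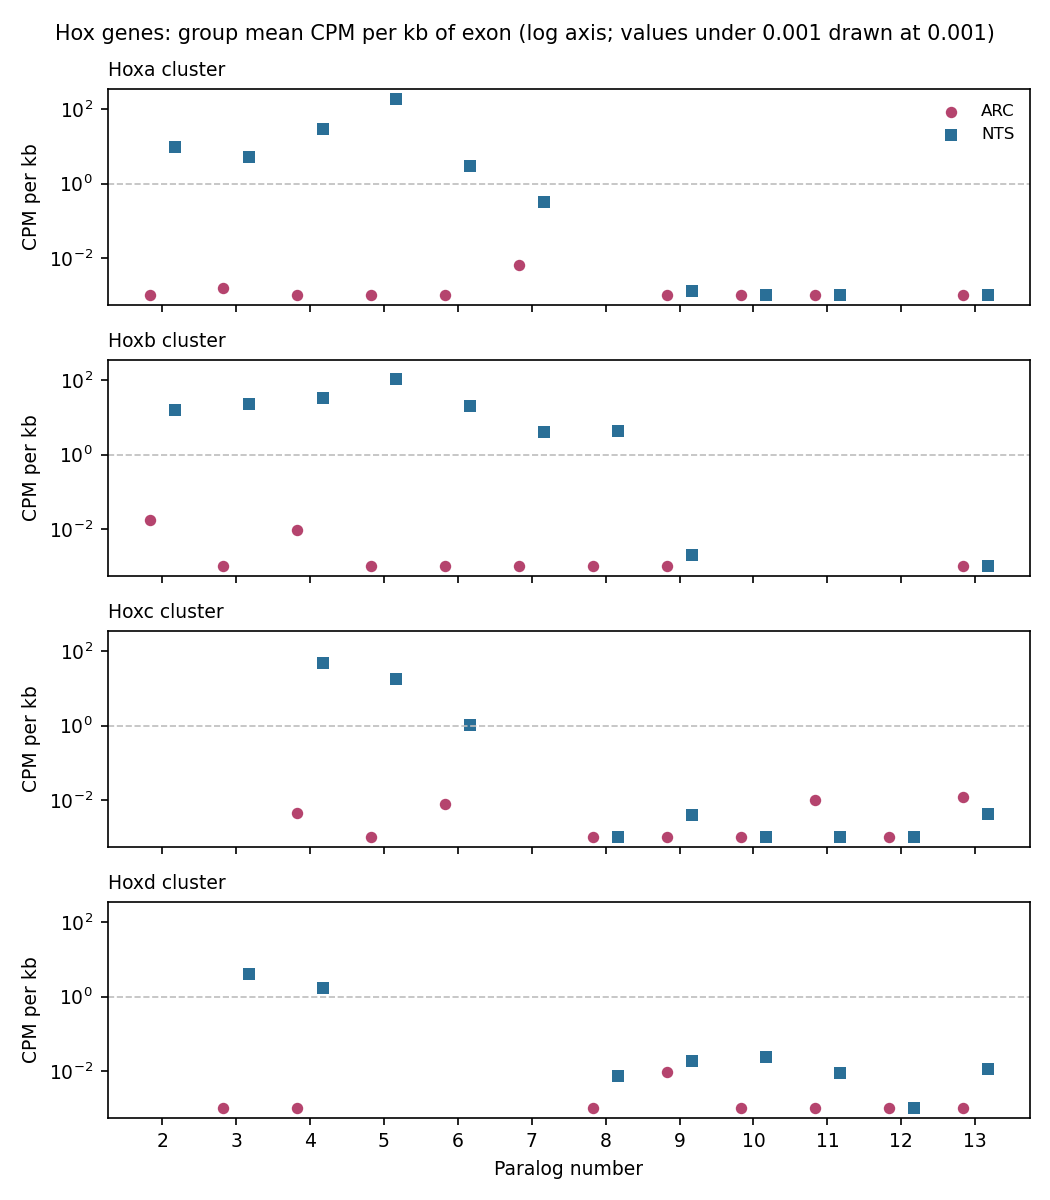
Group mean CPM per kb of exon (log axis) against paralog number from 2 on for the Hoxa, Hoxb, Hoxc and Hoxd clusters, with ARC as red circles and NTS as blue squares; the dashed line is 1 CPM per kb. NTS levels are highest at paralog 5 in Hoxa and Hoxb, at 4 in Hoxc and at 3 in Hoxd, and are at or near the floor of the axis from 9 on, where most ARC means lie throughout.

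Factors of hindbrain neurons formed the counterpart to the hypothalamic list. Of 42 measured factors 29 were tested, and 23 were lower in ARC, 21 of them past 2-fold, with a median of -4.93. Over all tested genes 31.5% were lower and 5.81% were lower past 2-fold. Of the 29, 3 had no count in any library of a region. These, and members near 0 in ARC such as Lmx1b and Tfap2b, could enter the test only through other libraries, so that share was partly fixed. Lmx1b, a LIM homeodomain factor of dorsal hindbrain excitatory neurons, had 0, 0 and 0.165 CPM in ARC libraries, against 36.6, 40.3 and 49.1 CPM in NTS libraries, a log2 fold change of -10.27 ± 0.29 (edgeR adjusted p = 1.66e-36). Tfap2b, of the AP-2 family, had 0, 0.102 and 0.34 CPM in ARC libraries, against 79.8, 94.5 and 153 CPM in NTS libraries, a log2 fold change of -9.42 ± 0.29 (edgeR adjusted p = 2.55e-36). Neither overlapped between regions. Mab21l2 is a regulator of eye and neural development named for its size of change, and it had 0, 0 and 0.093 CPM in ARC libraries, against 122, 141 and 160.0 CPM in NTS libraries, a log2 fold change of -11.60 ± 0.21 (edgeR adjusted p = 4.69e-51). Such values moved with the libraries used but stayed called: Lmx1b was -11.89 without ARC library 4, and Mab21l2 was -12.39 without ARC libraries 8 and 9 (sample numbers 5556 and 5557). The Hox cofactors Meis1 and Pbx3 were lower in ARC as well. Meis1 had 0.534, 2.05 and 3.29 CPM in ARC libraries, against 44.3, 50.9 and 52.8 CPM in NTS libraries, a log2 fold change of -4.52 ± 0.15 (edgeR adjusted p = 3.90e-37), and Pbx3 had 19.6, 22.9 and 28 CPM in ARC libraries, against 96.9, 117 and 129 CPM in NTS libraries, a log2 fold change of -2.28 ± 0.09 (edgeR adjusted p = 8.32e-33). Picked after its values were seen, Meis2 averaged 0.766 ± 0.413 CPM in ARC and 158 ± 28.6 CPM in NTS, a log2 fold change of -7.59 ± 0.67 (edgeR adjusted p = 1.60e-14). Higher in ARC against the direction of the list were, among others, Lhx5 at a log2 fold change of 1.44 ± 0.17 (edgeR adjusted p = 1.50e-11), the neuroendocrine factor Insm1 at 0.97, the dopaminergic factor Nr4a2 at 1.26 and Tal1 at 0.92. Nr4a2 is also an activity gene, and Tal1 also marks blood and vessel lineages.

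Peptides of NTS neurons were lower in ARC wherever a difference was called. Of 12 tested members of 18, 10 were lower in ARC, all past 2-fold, against 31.5% and 5.81% of all genes. None was higher and 2 did not pass, with a median of -3.31. Members near 0 in ARC, among them Gcg, Prlh and Npb, could enter the test only through other libraries, so that share was partly fixed. Adcyap1, which encodes the peptide PACAP, had 2.37, 4.86 and 10.04 CPM in ARC libraries, against 187, 249.5 and 303 CPM in NTS libraries, a log2 fold change of -5.41 ± 0.22 (edgeR adjusted p = 5.34e-29). Its lowest NTS library lay far above its highest ARC library. Grp, the gene of gastrin-releasing peptide, had 1.85, 2.76 and 4.76 CPM in ARC libraries, against 29.5, 43 and 55.3 CPM in NTS libraries, a log2 fold change of -3.81 ± 0.18 (edgeR adjusted p = 9.16e-28). Cck, the gene of the satiety peptide cholecystokinin, had 0, 1.53 and 17.8 CPM in ARC libraries, against 46.6, 57.6 and 72.7 CPM in NTS libraries, a log2 fold change of -3.60 ± 0.52 (edgeR adjusted p = 2.40e-08). The regions did not overlap, but ARC library 8 carried the top ARC value, and without it the fold change was -4.28. Nppc, the gene of C-type natriuretic peptide, averaged 5.33 ± 1.44 CPM in ARC and 26.5 ± 10.3 CPM in NTS, a log2 fold change of -2.34 ± 0.23 (edgeR adjusted p = 2.84e-13), and Npb, the gene of neuropeptide B, averaged 0.231 ± 0.244 CPM in ARC and 3.18 ± 0.832 CPM in NTS, a log2 fold change of -3.64 ± 0.40 (edgeR adjusted p = 4.05e-12).

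Markers of small NTS cell groups varied from library to library. Gcg, the preproglucagon gene whose neurons make GLP-1, had 0, 0 and 0.43 CPM in ARC libraries, against 0, 6.15 and 101 CPM in NTS libraries, a log2 fold change of -8.14 ± 1.36 (edgeR adjusted p = 1.31e-06). It was high in NTS library 1 and at 0 in NTS library 6, so the regions overlapped at 0; without NTS library 1 the fold change was -7.45, still called. Limma-voom gave -5.53 and did not call it (adjusted p = 0.164), nor did edgeR with the oligodendrocyte score, at -2.51 (adjusted p = 0.742). Prlh, the gene of prolactin-releasing peptide of noradrenergic satiety neurons, had 0, 0 and 2.14 CPM in ARC libraries, against 2.14, 22.3 and 48.1 CPM in NTS libraries, a log2 fold change of -6.09 ± 0.73 (edgeR adjusted p = 4.49e-09). The single ARC value well above 0 came from library 9, close to the lowest NTS library, and without it the fold change was -8.20. Gfral, the receptor of the sickness and nausea hormone GDF15, is known from this part of the hindbrain. It had 0, 0 and 0.093 CPM in ARC libraries, against 8.18, 12.6 and 21.5 CPM in NTS libraries, a log2 fold change of -8.61 ± 0.37 (edgeR adjusted p = 1.98e-30), with no overlap, and -10.23 without ARC libraries 8 and 9.

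Catecholamine genes split by transmitter. Of 14 tested genes, 5 were higher in ARC and 8 lower, against 30.2% and 31.5% of all genes. Past 2-fold were 2 and 5, and the median was -0.62, or -0.23 with the oligodendrocyte score. Dbh (chr2:27165233-27183200), the enzyme that turns dopamine into noradrenaline, had 0.658, 1.72 and 2.58 CPM in ARC libraries, against 132, 192 and 225 CPM in NTS libraries, a log2 fold change of -6.85 ± 0.21 (edgeR adjusted p = 6.38e-36). Slc6a2, the noradrenaline transporter, had 0, 0 and 0.408 CPM in ARC libraries, against 3.37, 5.76 and 21.5 CPM in NTS libraries, a log2 fold change of -6.54 ± 0.52 (edgeR adjusted p = 2.09e-17). Slc6a3, the dopamine transporter, had 16, 37 and 56.9 CPM in ARC libraries, against 0.147, 0.671 and 2.58 CPM in NTS libraries, a log2 fold change of 5.51 ± 0.29 (edgeR adjusted p = 1.90e-24). The noradrenergic genes lay in NTS and the dopamine transporter in ARC, each without overlap; without ARC library 7 Slc6a2 was -7.42. Th, tyrosine hydroxylase, which both transmitters need, had 86.1, 121 and 149 CPM in ARC libraries, against 63.9, 66.4 and 88.7 CPM in NTS libraries, a log2 fold change of 0.75 ± 0.12 (edgeR adjusted p = 2.48e-07). It overlapped slightly and was not past 2-fold. Slc18a2, the vesicular monoamine transporter, averaged 68.7 ± 11.3 CPM in ARC and 22.9 ± 12.4 CPM in NTS, a log2 fold change of 1.61 ± 0.25 (edgeR adjusted p = 1.98e-07). The decarboxylase Ddc averaged 96.4 ± 11.4 CPM in ARC and 270.1 ± 44 CPM in NTS, a log2 fold change of -1.48 ± 0.10 (edgeR adjusted p = 4.55e-21), and the degrading enzyme Maoa averaged 54.2 ± 4.45 CPM in ARC and 138 ± 13.9 CPM in NTS, a log2 fold change of -1.35 ± 0.08 (edgeR adjusted p = 4.97e-24). The cofactor enzymes Gch1 and Pts were higher in ARC by 0.68 and 0.41 on the log2 scale.

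Cholinergic genes were mostly lower in ARC: of 11 tested, 2 were higher and 8 lower, with 7 lower past 2-fold and a median of -2.41, or -3.52 with the oligodendrocyte score. Over all tested genes 30.2% were higher and 31.5% lower, with 5.81% lower past 2-fold. Chat, the acetylcholine-making enzyme, had 1.49, 2.37 and 3.34 CPM in ARC libraries, against 6.3, 10.6 and 26 CPM in NTS libraries, a log2 fold change of -2.41 ± 0.30 (edgeR adjusted p = 3.18e-10). Slc5a7, the choline transporter, had 0.215, 1.42 and 2.04 CPM in ARC libraries, against 14.5, 24.1 and 41.7 CPM in NTS libraries, a log2 fold change of -4.22 ± 0.37 (edgeR adjusted p = 7.22e-15). Neither overlapped between regions, though both varied several-fold among NTS libraries. The nicotinic receptor subunits Chrna3 and Chrnb4, which lie in a shared gene cluster and pair in autonomic neurons, averaged 1.75 and 0.511 CPM in ARC against 46.3 and 23.5 CPM in NTS, with log2 fold changes of -4.66 ± 0.22 and -5.35 ± 0.28. The muscarinic receptor Chrm2 had 6.67, 10.04 and 12.2 CPM in ARC libraries, against 31.6, 40.9 and 57.8 CPM in NTS libraries, a log2 fold change of -2.03 ± 0.16 (edgeR adjusted p = 2.00e-17). Higher in ARC were Isl1, described above, and the vesicular protein Slc10a4 at 0.57 ± 0.25, a call that 18 of 33 alternatives lost. Of 5 tested serotonin and histamine genes, 1 was higher in ARC and 2 lower, against 30.2% and 31.5% of all genes, and 2 did not pass. The higher gene was past 2-fold and neither lower gene was, and the highest log2 fold change in the list was 1.61. Among the lower genes, the histamine-degrading enzyme Hnmt averaged 18.8 ± 2.22 CPM in ARC and 44.3 ± 5.05 CPM in NTS, a log2 fold change of -1.23 ± 0.12 (edgeR adjusted p = 2.46e-14). The neuronal serotonin-making enzyme Tph2 was near the floor, at 1.38 ± 0.396 CPM in ARC and 2.61 ± 0.889 CPM in NTS, a log2 fold change of -0.91 ± 0.36 (edgeR adjusted p = 0.0237), a call that limma-voom did not make (adjusted p = 0.1). Both lists have few members, and the 5 serotonin and histamine genes gave a median of 0.31 without and -0.30 with the oligodendrocyte score.

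The list of genes for GABA and glycine transmission split between the regions. Of 28 tested genes 11 were higher in ARC and 10 lower, against 30.2% and 31.5% of all genes, 4 in each direction were past 2-fold, and the median was -0.03, so its counts lay near those of all genes. Slc6a5, the transporter that loads glycine neurons, had 0, 0.352 and 1.07 CPM in ARC libraries, against 55.4, 89.9 and 173 CPM in NTS libraries, a log2 fold change of -7.97 ± 0.38 (edgeR adjusted p = 1.38e-25). All NTS libraries carried it and ARC libraries were at or near 0. The glycine receptor subunit Glra1 had 1.58, 3.07 and 5.85 CPM in ARC libraries, against 12.7, 18.7 and 35.4 CPM in NTS libraries, a log2 fold change of -2.61 ± 0.23 (edgeR adjusted p = 2.42e-15), and the mostly astrocytic glycine transporter Slc6a9 had 29.9, 48 and 62.9 CPM in ARC libraries, against 132, 173 and 216 CPM in NTS libraries, a log2 fold change of -1.81 ± 0.13 (edgeR adjusted p = 9.45e-19). Some GABA receptor subunits ran the other way. Gabre, the epsilon subunit, had 219, 293 and 331 CPM in ARC libraries, against 11.4, 19 and 38.2 CPM in NTS libraries, a log2 fold change of 3.80 ± 0.15 (edgeR adjusted p = 4.61e-30). Gabra5 averaged 135 ± 10.6 CPM in ARC and 35.9 ± 4.57 CPM in NTS, a log2 fold change of 1.91 ± 0.09 (edgeR adjusted p = 1.91e-27). Gabrg1 averaged 199 ± 18.5 CPM in ARC and 78.7 ± 9.16 CPM in NTS, a log2 fold change of 1.34 ± 0.12 (edgeR adjusted p = 2.61e-14). Picked after their values were seen, the GABA-making enzymes Gad1 and Gad2 and the vesicular transporter Slc32a1 were higher in ARC by 0.89, 0.58 and 0.53 on the log2 scale, all called and none past 2-fold.

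The list of genes for glutamate transmission also split. Of 28 tested, 9 were higher in ARC, none past 2-fold, and 11 were lower, 6 past 2-fold, with a median of -0.06, against 30.2% of all genes higher and 31.5% lower. Slc17a6, the vesicular glutamate transporter of most hypothalamic and hindbrain excitatory neurons, had 74.3, 119 and 137 CPM in ARC libraries, against 425, 452 and 494 CPM in NTS libraries, a log2 fold change of -2.03 ± 0.08 (edgeR adjusted p = 8.07e-32). Slc17a8, a rarer relative, had 0.645, 1.4 and 2.65 CPM in ARC libraries, against 15.8, 25.8 and 34.4 CPM in NTS libraries, a log2 fold change of -3.94 ± 0.25 (edgeR adjusted p = 7.55e-22). Neither overlapped between regions. Slc17a7, the third vesicular transporter and picked after its values were seen, had 0, 0 and 35.1 CPM in ARC libraries, against 0, 1.59 and 14.4 CPM in NTS libraries, and did not pass, at 0.97 ± 1.03 (edgeR adjusted p = 0.424). The NMDA receptor subunit Grin3a averaged 46.9 ± 3.68 CPM in ARC and 134 ± 17.3 CPM in NTS, a log2 fold change of -1.52 ± 0.09 (edgeR adjusted p = 2.57e-24), and the metabotropic receptor Grm8 averaged 15.4 ± 3.17 CPM in ARC and 31.1 ± 2.59 CPM in NTS, a log2 fold change of -1.01 ± 0.09 (edgeR adjusted p = 1.13e-14). Of 5 kainate receptor subunits 4 were higher in ARC, among them Grik1 at 0.95, Grik3 at 1.11 and Grik5 at 0.50, and 1 was lower, Grik4 at -0.34, picked after its values were seen. The delta receptor Grid1 was higher at 0.86. No library overlapped between regions for Grik1, Grik3, Grik5 and Grid1.

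Receptors for appetite hormones and peptides were more often higher in ARC. Of 53 tested, 29 were higher and 15 lower, against 30.2% and 31.5% of all genes. Past 2-fold were 15 and 6, against 3.19% and 5.81% of all genes, and the median was 0.38. The receptors for PYY and GLP-1, which the series' title names, were both higher in ARC. Npy2r, the receptor for the truncated form of PYY, had 158, 200.5 and 244 CPM in ARC libraries, against 24, 35.1 and 45.7 CPM in NTS libraries, a log2 fold change of 2.44 ± 0.17 (edgeR adjusted p = 3.63e-19). Glp1r, the GLP-1 receptor, had 5.82, 7.57 and 18.1 CPM in ARC libraries, against 0, 0.818 and 1.55 CPM in NTS libraries, a log2 fold change of 3.50 ± 0.35 (edgeR adjusted p = 3.95e-13). Neither receptor overlapped between regions, and Glp1r in NTS lay near the detection floor. Lepr, the leptin receptor counted over all its isoforms, had 8.46, 15.3 and 20.7 CPM in ARC libraries, against 1.12, 2.48 and 3.2 CPM in NTS libraries, a log2 fold change of 2.5 ± 0.20 (edgeR adjusted p = 2.14e-17). Mc3r, a melanocortin receptor of ARC neurons, had 48.4, 51.5 and 63.8 CPM in ARC libraries, against 0.147, 0.785 and 1.27 CPM in NTS libraries, a log2 fold change of 6.11 ± 0.22 (edgeR adjusted p = 3.03e-33). Both were separate between regions, whereas Mc4r, the melanocortin receptor that restrains feeding, was not: it had 4.38, 6.27 and 7.24 CPM in ARC libraries, against 5.28, 6.51 and 15.6 CPM in NTS libraries. Its log2 fold change of -0.28 ± 0.15 did not pass (edgeR adjusted p = 0.0939), and without NTS library 1, the highest, it was -0.11.

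Calcr, the calcitonin receptor and core of amylin receptors, had 132, 159.8 and 197 CPM in ARC libraries, against 12.4, 16.9 and 26.2 CPM in NTS libraries, a log2 fold change of 3.24 ± 0.13 (edgeR adjusted p = 1.54e-30). Calcrl, its relative that forms CGRP and adrenomedullin receptors and is strong in vessels, had 4.28, 8.08 and 10.1 CPM in ARC libraries, against 41.1, 56.8 and 65 CPM in NTS libraries, a log2 fold change of -2.93 ± 0.13 (edgeR adjusted p = 3.23e-30). The 2 related receptors differed in opposite directions, without overlap. Brs3, an orphan bombesin-like receptor that restrains food intake, had 21.9, 23.9 and 33 CPM in ARC and no count in any NTS library, at least 1057-fold higher (edgeR adjusted p = 2.96e-31). Npy1r, a receptor for neuropeptide Y, had 50.2, 67.2 and 78.9 CPM in ARC libraries, against 8.25, 11.9 and 17.3 CPM in NTS libraries, a log2 fold change of 2.42 ± 0.11 (edgeR adjusted p = 7.88e-29). Cnr1, the cannabinoid receptor of nerve endings, had 33.3, 37.4 and 59.9 CPM in ARC libraries, against 167, 191 and 253 CPM in NTS libraries, a log2 fold change of -2.27 ± 0.12 (edgeR adjusted p = 9.97e-24). Ntsr2, a neurotensin receptor abundant in astrocytes, averaged 119.9 ± 21.8 CPM in ARC and 252 ± 24.9 CPM in NTS, a log2 fold change of -1.07 ± 0.08 (edgeR adjusted p = 1.06e-17). Picked after its values were seen, Ghsr, the ghrelin receptor, averaged 58.6 ± 17.1 CPM in ARC and 13.9 ± 3.72 CPM in NTS, a log2 fold change of 2.09 ± 0.16 (edgeR adjusted p = 2.13e-17).

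Receptors for steroids and pituitary hormones were higher in ARC for 10 of 14 genes, 8 of them past 2-fold, with 2 lower and a median of 1.7. Over all tested genes 30.2% were higher, 3.19% were higher past 2-fold and 31.5% were lower. Esr1, the estrogen receptor alpha, had 95.5, 125 and 157 CPM in ARC libraries, against 17.3, 23 and 29 CPM in NTS libraries, a log2 fold change of 2.46 ± 0.10 (edgeR adjusted p = 3.61e-32). Prlr, the prolactin receptor, had 121, 144 and 173 CPM in ARC libraries, against 7.34, 9.33 and 17.2 CPM in NTS libraries, a log2 fold change of 3.85 ± 0.15 (edgeR adjusted p = 2.60e-30). Pgr, the progesterone receptor, averaged 65.5 ± 8.47 CPM in ARC and 14.7 ± 3.59 CPM in NTS, a log2 fold change of 2.14 ± 0.11 (edgeR adjusted p = 2.23e-27). All 3 were detected in every NTS library, and none overlapped between regions. The mineralocorticoid receptor Nr3c2 was lower in ARC, at -0.64 and the thyroid hormone receptor Thra at -0.28 on the log2 scale.

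Ion channels of excitability gave 12 higher and 20 lower of 41 tested, 2 and 5 past 2-fold, with a median of -0.18. Over all tested genes the shares were 30.2% higher and 31.5% lower, with 3.19% and 5.81% past 2-fold. Kcnc4, a potassium channel subunit that speeds repolarisation, had 45, 52.6 and 61.7 CPM in ARC libraries, against 199, 213 and 226 CPM in NTS libraries, a log2 fold change of -2.01 ± 0.08 (edgeR adjusted p = 4.44e-32). Kcnab2, an accessory potassium channel subunit, had 59.6, 66.4 and 109.7 CPM in ARC libraries, against 146, 213 and 280.1 CPM in NTS libraries, a log2 fold change of -1.55 ± 0.19 (edgeR adjusted p = 3.66e-10). Both were separate between regions. The sodium channel gene Scn9a, known from sensory and hypothalamic neurons, averaged 207 ± 28.2 CPM in ARC and 84.3 ± 20.3 CPM in NTS, a log2 fold change of 1.30 ± 0.13 (edgeR adjusted p = 2.83e-13). The pacemaker channel Hcn4 and the T-type calcium channel Cacna1h were higher in ARC by 0.80 and 0.90 on the log2 scale. Kcnab1, an accessory subunit, and Abcc8, a subunit of ATP-sensitive channels, stood at -0.66 and -0.87. Of 18 genes for neurofilaments and perineuronal nets, 4 were higher and 11 lower, 5 past 2-fold, with a median of -0.63. Nefl, the light neurofilament of thick axons, had 113, 143 and 189.9 CPM in ARC libraries, against 549.7, 712 and 807 CPM in NTS libraries, a log2 fold change of -2.28 ± 0.17 (edgeR adjusted p = 2.88e-17). Nefm averaged 50.1 ± 14.4 CPM in ARC and 250.1 ± 76.2 CPM in NTS, a log2 fold change of -2.32 ± 0.30 (edgeR adjusted p = 1.28e-09), and Prph, peripherin of cranial and autonomic neurons, averaged 2.98 ± 0.893 CPM in ARC and 46.3 ± 30.1 CPM in NTS, a log2 fold change of -3.96 ± 0.42 (edgeR adjusted p = 6.48e-12). Ncan and Acan, proteoglycans of the matrix around neurons, were higher in ARC at 1.16 and 0.99. Myelin genes moved with the same regions, and the direction of both list medians turned with the oligodendrocyte score: with the score the medians were 0.06 for channels and 0.15 for the neurofilament list, although score and region cannot be told apart.

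**Figure D4:**
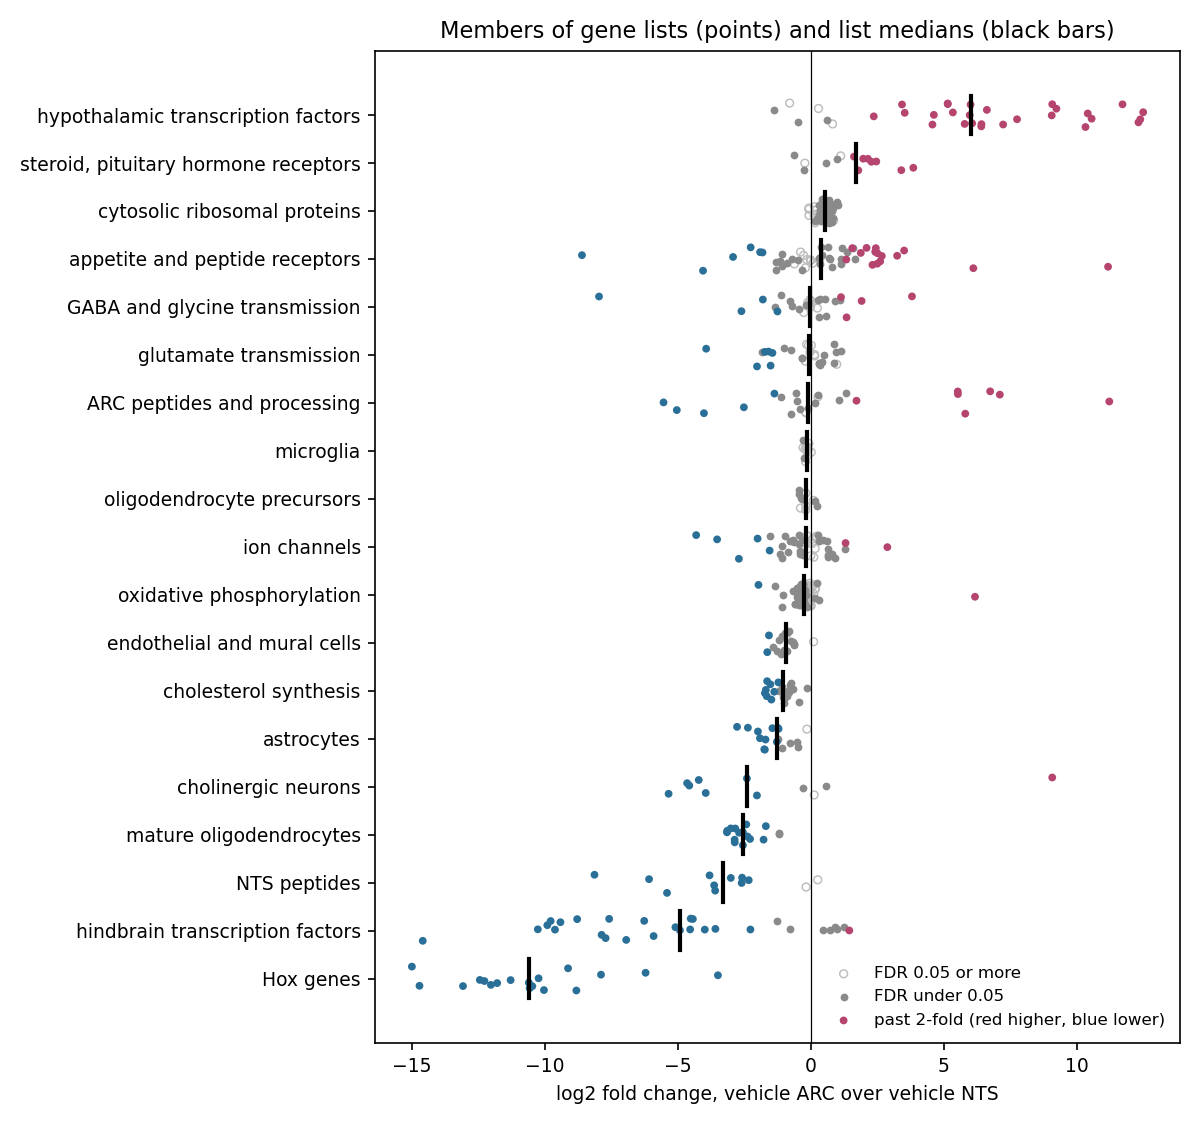
Each point is a tested member of a gene list, placed by its log2 fold change of vehicle ARC over vehicle NTS; black bars are list medians. Filled red and blue points passed the test against 2-fold (red higher, blue lower in ARC), grey points passed only the test against 0, and open points passed neither; hypothalamic factors sit far to the right at a median of 6.00, and Hox genes far to the left at a median of -10.59, where fitted values of genes at 0 in ARC depend on a prior count.

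Glial genes set the NTS apart by a shift of whole lists. All 17 mature oligodendrocyte genes were lower in ARC, 15 past 2-fold, against 31.5% and 5.81% of all genes, with a median of -2.56. Mbp, which encodes myelin basic protein, had 185, 287 and 470.2 CPM in ARC libraries, against 861, 2109 and 2648 CPM in NTS libraries, a log2 fold change of -2.56 ± 0.33 (edgeR adjusted p = 1.28e-09). It varied several-fold among NTS libraries, and still no ARC library reached an NTS library. Cnp, an enzyme of myelin, averaged 124 ± 24.7 CPM in ARC and 403 ± 112 CPM in NTS, and Cldn11, its tight junction protein, averaged 22.2 ± 8.64 CPM in ARC and 136 ± 49.1 CPM in NTS. Of 17 astrocyte genes 16 were lower in ARC, 11 past 2-fold, with a median of -1.28. Gja1, the gap junction protein connexin 43, had 82, 107 and 120.0 CPM in ARC libraries, against 483, 556 and 624 CPM in NTS libraries, a log2 fold change of -2.37 ± 0.09 (edgeR adjusted p = 2.43e-31). Aqp4, the water channel of astrocyte endfeet, had 65.9, 92.1 and 104 CPM in ARC libraries, against 276, 377 and 439 CPM in NTS libraries, a log2 fold change of -1.99 ± 0.12 (edgeR adjusted p = 2.74e-22). Aldoc, an aldolase of astrocytes, averaged 654 ± 90.3 CPM in ARC and 2137 ± 316 CPM in NTS, a log2 fold change of -1.71 ± 0.10 (edgeR adjusted p = 5.19e-23). Gjb6, connexin 30, averaged 44 ± 10.02 CPM in ARC and 167 ± 16.8 CPM in NTS, a log2 fold change of -1.92 ± 0.11 (edgeR adjusted p = 3.63e-23). The astrocyte median was -0.93 with the oligodendrocyte score.

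Genes of oligodendrocyte precursors and of microglia gave no difference past 2-fold. Of 11 precursor genes, 2 were higher and 4 lower, against 30.2% and 31.5% of all genes. None was past 2-fold, and the median was -0.20. Lhfpl3 stood at -0.44, Vcan at -0.38, Olig1 at -0.34 and Neu4 at -0.44, while Tnr at 0.24 and Pdgfra at 0.17 were higher in ARC. The Pdgfra call was lost in 10 of 33 alternatives. Of 13 microglial genes, none was higher and 2 were lower, among them C1qb at -0.27 ± 0.12 (edgeR adjusted p = 0.0464), with a median of -0.16. The C1qb call was lost in 19 of 33 alternatives. The summed microglial level was 419 to 547 CPM in ARC and 433 to 606 CPM in NTS, so the libraries overlapped. With the oligodendrocyte score both medians turned, to 0.09 for precursor and 0.12 for microglial genes.

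Vessel genes were lower in ARC for 16 of 18, 2 past 2-fold, against 31.5% and 5.81% of all genes, with a median of -0.95. Abcc9, a channel subunit of pericytes, averaged 6.00 ± 1.12 CPM in ARC and 18.6 ± 4.19 CPM in NTS, a log2 fold change of -1.64 ± 0.16 (edgeR adjusted p = 2.60e-14). Pdgfrb, the pericyte growth factor receptor, averaged 14.7 ± 2.49 CPM in ARC and 32.3 ± 5.8 CPM in NTS, a log2 fold change of -1.14 ± 0.11 (edgeR adjusted p = 1.01e-14). Plvap, which marks fenestrated vessels of open blood-brain regions, had 4.08, 5.38 and 14.1 CPM in ARC libraries, against 15, 19.3 and 24 CPM in NTS libraries, a log2 fold change of -1.58 ± 0.15 (edgeR adjusted p = 1.11e-14). Its regions did not overlap. All 5 globin and red cell genes were lower in ARC, with a median of -1.79; Hbb-bs had 3.44, 11.5 and 25.8 CPM in ARC libraries, against 26.8, 48.6 and 102 CPM in NTS libraries, and Hba-a1 and Hba-a2, near-identical copies whose reads may be shared, stood at -1.79 and -1.7. Of 9 tested meningeal and fibroblast genes, 2 were higher and 4 lower, against 30.2% and 31.5% of all genes, with a median of -0.53. Col1a2, a collagen chain, had 5.59, 8.9 and 23.8 CPM in ARC libraries, against 82.9, 92.4 and 123 CPM in NTS libraries, a log2 fold change of -3.16 ± 0.15 (edgeR adjusted p = 3.75e-26), and Igf2 averaged 5.9 ± 4.16 CPM in ARC and 45.8 ± 17.3 CPM in NTS, a log2 fold change of -2.94 ± 0.27 (edgeR adjusted p = 3.37e-14). Ptgds averaged 64.3 ± 66.1 CPM in ARC and 184 ± 80.7 CPM in NTS, with overlap. Dcn and Lum were called higher in ARC at 0.78 and 0.93, but ARC library 2 carried Dcn at 75.7 CPM, and without it they stood at 0.31 and 0.59 and were not called; the list median was then -1.11. With the oligodendrocyte score the meningeal median was 0.71, the red cell median -0.19 and the vessel median -0.41.

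Cells that line the ventricle differed by gene. Tanycytes, the ventricular cells of the mediobasal hypothalamus, gave 8 higher and 9 lower of 20 listed genes, against 30.2% and 31.5% of all genes. Past 2-fold were 4 and 1, and the median was -0.25 (0.02 with the oligodendrocyte score). Rax, their defining factor, had 0.824, 1.71 and 5.28 CPM in ARC libraries, against 0, 0.0733 and 0.759 CPM in NTS libraries, a log2 fold change of 3.53 ± 0.50 (edgeR adjusted p = 1.05e-08). Gpr50, an orphan receptor of tanycytes, had 10.1, 13 and 18.2 CPM in ARC libraries, against 0, 0.70 and 4.35 CPM in NTS libraries, a log2 fold change of 3.61 ± 0.40 (edgeR adjusted p = 9.03e-12); NTS library 4 held the highest NTS value, and without it the fold change was 4.32. Gpr179 averaged 42.7 ± 5.67 CPM in ARC and 8.69 ± 2.15 CPM in NTS and Deptor, an inhibitor of mTOR that Pomc neurons also express, averaged 95.8 ± 12.6 CPM in ARC and 26.7 ± 4.03 CPM in NTS. Ppp1r1b, the phosphatase inhibitor DARPP-32, was lower in ARC at 4.53 ± 1.25 CPM in ARC and 17.9 ± 4.33 CPM in NTS, as were the transporter Slco1c1 at 19.1 ± 2.39 CPM in ARC and 34.9 ± 6.05 CPM in NTS and Crym at 4.24 ± 1.27 CPM in ARC and 10.54 ± 1.98 CPM in NTS. Of 11 tested ependymal genes 7 did not pass; Fam183b at 2.02 and Rsph1 at 1.17 were higher in ARC, and Foxj1, the factor of motile cilia, at -1.62 and Pltp at -1.57 were lower. Of 6 tested choroid plexus genes 4 were higher in ARC, 1 past 2-fold, with a median of 0.96 (0.15 with the score). Ttr, the most abundant choroid transcript, averaged 4.81 ± 5.07 CPM in ARC and 5.65 ± 6.24 CPM in NTS, whereas Clic6, a chloride channel protein of the same list, had 30.4, 41.7 and 44.2 CPM in ARC libraries, against 2.35, 4.4 and 6.22 CPM in NTS libraries, a log2 fold change of 3.20 ± 0.16 (edgeR adjusted p = 4.51e-26).

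Lipid and housekeeping genes shifted as groups. All 21 genes of cholesterol synthesis and its control were lower in ARC, 8 past 2-fold, against 31.5% and 5.81% of all genes. Their median was -1.06, which was -1.10 with the oligodendrocyte score. Hmgcs1, an early enzyme of the pathway, had 192, 211 and 236 CPM in ARC libraries, against 427, 489 and 539 CPM in NTS libraries, a log2 fold change of -1.23 ± 0.06 (edgeR adjusted p = 1.62e-27). Insig1, a brake on the pathway, averaged 70.8 ± 7.82 CPM in ARC and 199 ± 16.8 CPM in NTS, a log2 fold change of -1.49 ± 0.07 (edgeR adjusted p = 4.20e-27), and Fdft1, squalene synthase, averaged 82.8 ± 10.6 CPM in ARC and 167 ± 9.12 CPM in NTS, a log2 fold change of -1.01 ± 0.06 (edgeR adjusted p = 1.20e-23). None of these 3 overlapped between regions. Cytosolic ribosomal protein genes were higher in ARC for 70 of 81, against 30.2% of all genes, none lower and none past 2-fold, with a median of 0.53. Rpl4 had 808, 933 and 1101 CPM in ARC libraries, against 597, 623 and 644 CPM in NTS libraries, a log2 fold change of 0.59 ± 0.05 (edgeR adjusted p = 2.23e-16), and Rps2 averaged 248 ± 19.7 CPM in ARC and 151 ± 8.8 CPM in NTS, a log2 fold change of 0.72 ± 0.06 (edgeR adjusted p = 3.04e-18). Rpl10 and Rpl14 stood at 1.0 and 0.81. Many processed copies of ribosomal protein genes exist, so their counts depend on how shared reads were treated. Of 94 nuclear genes of oxidative phosphorylation, 4 were higher and 56 lower, against 30.2% and 31.5% of all genes. Their median was -0.27, or -0.06 with the oligodendrocyte score. Cox5a averaged 145 ± 9.15 CPM in ARC and 221 ± 20.8 CPM in NTS, a log2 fold change of -0.60 ± 0.07 (edgeR adjusted p = 2.72e-11), and Sdhc averaged 119 ± 7.79 CPM in ARC and 160.2 ± 8.97 CPM in NTS, a log2 fold change of -0.43 ± 0.05 (edgeR adjusted p = 8.81e-12). Cox6a1, the common form of a cytochrome oxidase subunit, stood at -0.69. Cox5a, Sdhc and Cox6a1 were not called with the score, at edgeR adjusted p = 0.206, 0.123 and 0.402. Cox6a2, the heart and muscle form of the Cox6a1 subunit, had 3.45, 5.86 and 9.15 CPM in ARC libraries, against 0, 0.0259 and 0.282 CPM in NTS libraries, a log2 fold change of 6.17 ± 0.46 (edgeR adjusted p = 1.35e-18).

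Activity, glucocorticoid and clock genes mostly overlapped between regions. Of 18 immediate early genes 14 did not pass, 3 were higher in ARC and 1 lower, with a median of 0.25, or 0.66 with the oligodendrocyte score. NTS library 1 set the upper end of several: Fosl2 had 12.2, 20.9 and 25.1 CPM in ARC libraries, against 1.96, 5.84 and 47.5 CPM in NTS libraries, a log2 fold change of 1.06 ± 0.36 (edgeR adjusted p = 0.0088), and without that library 1.75. Without it the list median was 0.58, without NTS library 6 it was 0.16, and without ARC libraries 8 and 9 it was 0.11. Junb averaged 46.5 ± 9.84 CPM in ARC and 25.7 ± 17.2 CPM in NTS, a log2 fold change of 0.88 ± 0.26 (edgeR adjusted p = 0.00293); in the treated libraries Junb and Fosl2 lay on the other side of 0, at -0.21 and -0.03, and were not called. Of 18 genes that respond to glucocorticoids 11 were lower in ARC and 2 higher, against 31.5% and 30.2% of all genes. Their median was -0.61, or -0.07 with the oligodendrocyte score. Fkbp5, a chaperone of the glucocorticoid receptor, had 45.8, 66.9 and 159 CPM in ARC libraries, against 28.7, 32.8 and 61 CPM in NTS libraries, a log2 fold change of 1.12 ± 0.19 (edgeR adjusted p = 6.31e-07), and Tsc22d3, also called Gilz, had 57.2, 77.9 and 111 CPM in ARC libraries, against 117, 138 and 229 CPM in NTS libraries, a log2 fold change of -0.86 ± 0.14 (edgeR adjusted p = 5.73e-07). Zbtb16 was called higher in ARC at 0.77, but at 0.45 without ARC library 1 it was not. Pdk4, a switch of fuel use, averaged 2.85 ± 1.05 CPM in ARC and 9.73 ± 2.6 CPM in NTS, and Klf15 averaged 17.8 ± 3.77 CPM in ARC and 35 ± 3.26 CPM in NTS. Of 19 clock genes, 6 were higher and 4 lower, against 30.2% and 31.5% of all genes, with a median of 0.11. Per2 stood at 0.35, Nr1d2 at 0.25, Bhlhe40 at 0.57, Dbp at -0.36, Bhlhe41 at -0.53 and Nfil3 at -0.60. Per2 and Bhlhe40 were not called in the treated libraries, at 0.13 and 0.09 (edgeR adjusted p = 0.254 and 0.541).

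Genes past 2-fold with the highest CPM, which is not corrected for length, included some outside these groups. Higher in ARC, Irs4, an insulin receptor substrate, had 551, 713 and 846 CPM in ARC libraries, against 7.76, 13.6 and 19.1 CPM in NTS libraries, a log2 fold change of 5.74 ± 0.13 (edgeR adjusted p = 8.79e-44). Peg10, a retrotransposon-derived imprinted gene, had 745, 1055 and 1329 CPM in ARC libraries, against 178, 226 and 303 CPM in NTS libraries, a log2 fold change of 2.14 ± 0.11 (edgeR adjusted p = 1.01e-25). Neither overlapped between regions. Arhgap36, a regulator of Hedgehog signalling, averaged 538 ± 41.1 CPM in ARC and 51.2 ± 11 CPM in NTS, and Serpina3n, a protease inhibitor induced in reactive glia, averaged 509.6 ± 94.4 CPM in ARC and 61.1 ± 5.34 CPM in NTS. Ecel1, a peptidase of developing nerves, averaged 725 ± 49.1 CPM in ARC and 264 ± 50.7 CPM in NTS, and Sez6l averaged 509 ± 49.6 CPM in ARC and 206 ± 17.4 CPM in NTS. All 4 were past 2-fold and free of overlap. Lower in ARC, Snap25, the synaptic fusion protein, had 531, 570.1 and 678 CPM in ARC libraries, against 1099.7, 1351 and 1584 CPM in NTS libraries, a log2 fold change of -1.25 ± 0.11 (edgeR adjusted p = 7.48e-15). Sparcl1, a matrix protein of astrocytes, had 1001, 1179 and 1369 CPM in ARC libraries, against 2169.8, 3626 and 4435 CPM in NTS libraries, a log2 fold change of -1.57 ± 0.12 (edgeR adjusted p = 2.27e-17). The potassium channel Kcnj10, the enzyme Glul and the anion channel Ttyh1, all abundant in astrocytes, stood at -1.87, -1.32 and -1.81. Slc30a3, which loads zinc into synaptic vesicles, had no count in any ARC library and 22, 34.1 and 46.1 CPM in NTS, at least 1027-fold lower (edgeR adjusted p = 4.19e-16), and Nxph4, a neurexin ligand, had 0, 0.089 and 0.431 CPM in ARC libraries, against 179, 225 and 261 CPM in NTS libraries, a log2 fold change of -10.32 ± 0.45 (edgeR adjusted p = 3.05e-27). Nxf3, an X-linked relative of an RNA export factor, had 16.1, 22.4 and 34.6 CPM in ARC libraries, against 0, 0.0699 and 0.423 CPM in NTS libraries, a log2 fold change of 7.36 ± 0.35 (edgeR adjusted p = 1.19e-27).

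Peg10 led to a look at other imprinted genes, a list drawn up after values were seen. Of 20 measured, 15 were higher in ARC and 3 lower, against 30.2% and 31.5% of all genes. Past 2-fold were 7 and 1, against 3.19% and 5.81%, and the median was 0.61. Those past 2-fold included Asb4, at 360.0 ± 34.9 CPM in ARC and 19.7 ± 3.09 CPM in NTS, Plagl1, at 486 ± 65.7 CPM in ARC and 29.4 ± 3.44 CPM in NTS, and Magel2, a gene of the Prader-Willi region, at 203 ± 10.9 CPM in ARC and 44.7 ± 7.4 CPM in NTS. Dlk1 averaged 56.7 ± 7.05 CPM in ARC and 8.51 ± 2.47 CPM in NTS. Gnas, which encodes the stimulatory G protein alpha subunit, was lower at -0.45, and Igf2, also meningeal, at -2.94. With the oligodendrocyte score the median was 0.34.

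Of 9 tested genes in a list of other hypothalamic neuron markers, 7 were higher in ARC, 6 past 2-fold, and 1 lower. Over all tested genes 30.2% were higher, 3.19% were higher past 2-fold and 31.5% were lower. Nkx2-1, higher in ARC, and Lhx9, the lower one, are also counted among the hypothalamic factors above. Of the 9 genes, 3 had no count in any library of a region and entered the test only through other libraries. The median of 5.42 was the fitted value of Pmch, the gene of melanin-concentrating hormone, picked after its values were seen: it had 36.9 CPM in ARC library 8, at most 0.558 CPM in the other ARC libraries and at most 0.468 CPM in NTS libraries. The median was 4.71 by DESeq2, 2.40 by limma-voom, 3.42 with the 19 libraries alone, 3.92 with the oligodendrocyte score and 5.52 without ARC library 8. Other members rested on single libraries too. Avp, the vasopressin gene of PVN and supraoptic neurons, had 0, 3.77 and 225 CPM in ARC and was at 0 in every NTS library; vehicle PVN libraries averaged 6267 ± 2968 CPM. ARC library 9 held the highest value, ARC library 4 had 50.5 CPM and ARC library 1 had 46.1 CPM, and the other 6 lay near the floor. Against 3 counts over the NTS libraries the ARC mean was at least 1553-fold higher (edgeR adjusted p = 2.07e-06), a call that limma-voom did not make. The fitted log2 value, which depends on a prior count, was 11.77, and 10.38 without ARC library 9. Oxt, the oxytocin gene, followed the same libraries, at 226, 57.1 and 119.8 CPM in ARC libraries 9, 4 and 1; its log2 fold change was 8.34 ± 1.38 with and 7.42 without ARC library 9, and limma-voom did not call it. ARC library 8 carried Prkcd at 171 CPM and Shox2 at 16.9 CPM, both genes of thalamic neurons, and Zic1 at 34.2 CPM. Zic1, listed for the cerebellum, had 2.05, 3.63 and 34.2 CPM in ARC libraries, against 112, 179 and 232 CPM in NTS libraries, a log2 fold change of -4.59 ± 0.39 (edgeR adjusted p = 2.41e-15), and -5.60 without that library; Zic2 likewise was -3.68 with and -4.38 without it. Of 11 genes listed for the cerebellum, 4 had too few counts in these libraries to be tested. Of the 7 tested, 6 were lower in ARC past 2-fold, against 5.81% of all genes. Among them were Cbln1 at 18.4 ± 3.03 CPM in ARC and 114 ± 15.6 CPM in NTS and Neurod1 at 1.26 ± 0.713 CPM in ARC and 9.77 ± 2.6 CPM in NTS. Calb1 was higher at 0.27, a call that 7 of 33 alternatives lost. The median of the tested cerebellar genes was -2.97, or -1.99 with the oligodendrocyte score, and whether cerebellar tissue was present was not tested. Pituitary hormone genes peaked in 2 ARC libraries, and Chgb, a granin, was the single tested member of the pituitary list at -0.12, a call that 14 of 33 alternatives lost: Gh was 65.7 CPM in library 4 and Cga was 27.1 CPM in library 2, with medians of 0 and 0.0880 over the ARC libraries. Gh, Cga, Prkcd and Shox2 were picked after their values were seen. Of 8 thalamic genes listed at that stage, 1 was higher in ARC and 4 lower, all past 2-fold, against 3.19% and 5.81% of all genes. Their median was -1.09, or 0.04 with the oligodendrocyte score. Shox2 lay at 38.5 to 64 CPM in NTS itself. The part of such neighbouring tissue in other results was not tested.

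NTS libraries 7 and 8 shared a set of genes. Lars2, the mitochondrial leucyl-tRNA synthetase, had 479, 739.9 and 1268 CPM in ARC libraries, and in NTS libraries 12897 and 12544 CPM in those 2 against 1024 to 3844 CPM in the other 8. With all libraries its log2 fold change was -2.36 ± 0.36 and past 2-fold; without the 2 it was -1.26, still called (edgeR adjusted p = 1.11e-05) but no longer past 2-fold. Gm10800 and Gm10801, picked after their values were seen, rose with Lars2. Gm10800 had 182.9 and 273.9 CPM in NTS libraries 7 and 8, against 7.36 to 57.4 CPM in the other NTS libraries. Gm10801 had 24.2 and 35.7 CPM, against 1.24 to 9.43 CPM. Which reads made up the counts of these 3 genes was not tested. Alb, the liver's albumin gene, stood at 175 and 118 CPM in the same libraries and at 4.58 to 29.8 CPM in the other NTS libraries. A list of 12 tested liver genes drawn up after values were seen had 1 higher in ARC and 4 lower, against 30.2% and 31.5% of all genes. Its median was -1.09, which was 0.13 without these 2 libraries, -0.46 without NTS library 7 alone, -2.83 with the oligodendrocyte score and -3.71 without ARC library 4, where Alb was 113 CPM. The fast channel gene Kcna1, picked after its values were seen, ran lower there, at 4.84 and 2.94 CPM against 5.48 to 34.9 CPM in the other NTS libraries. Without them 8849 genes were called and 1301 lay past 2-fold, and 8437 of 8873 calls that could be followed held in the same direction.

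**Figure D5:**
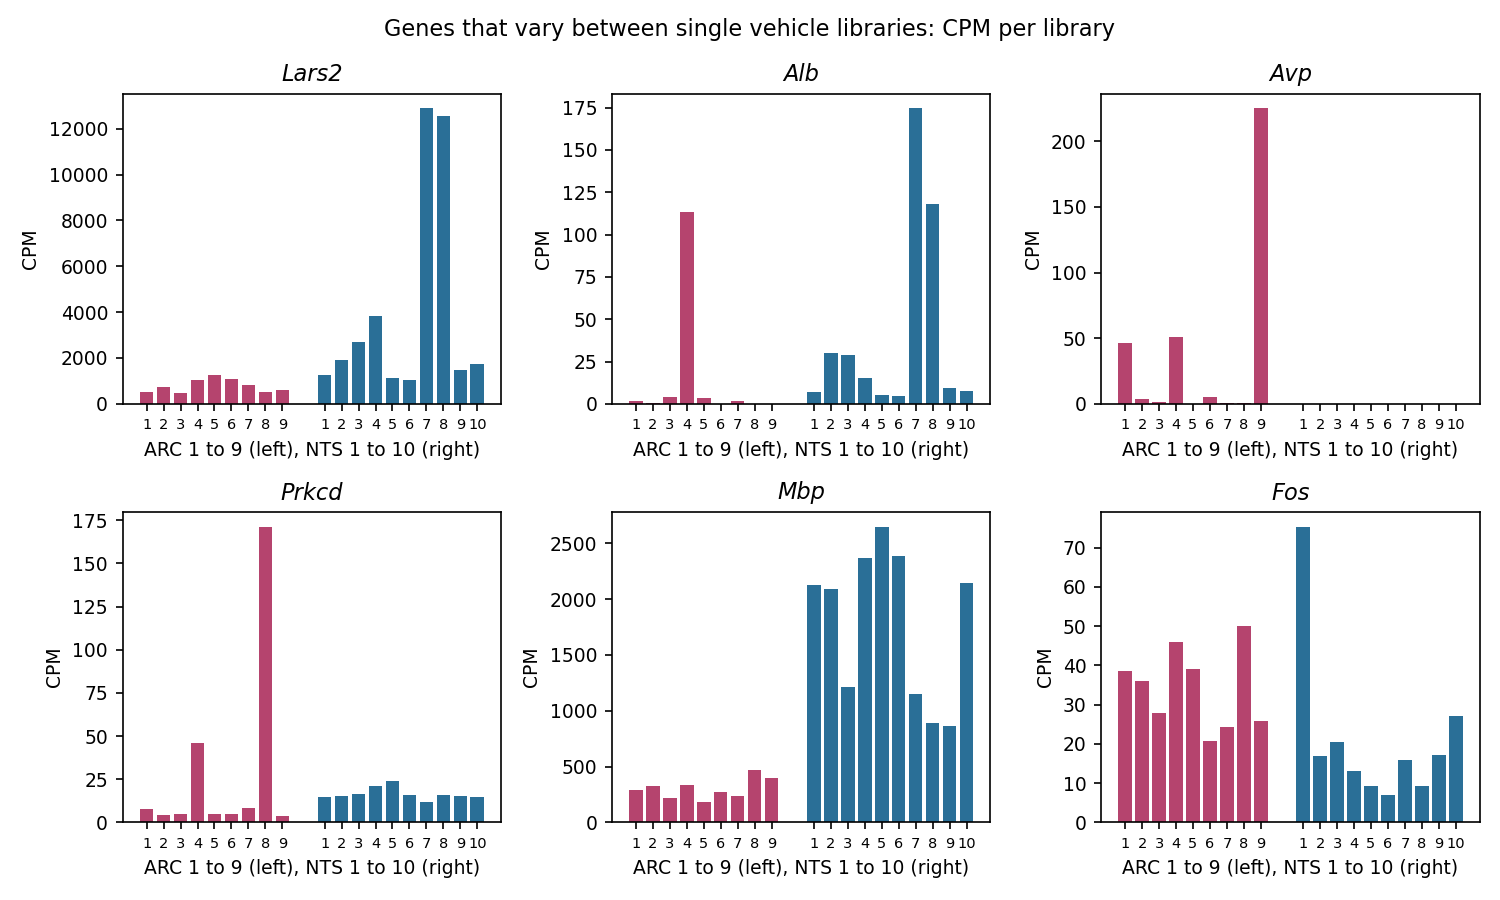
Bars are CPM in single vehicle libraries, ARC 1 to 9 in red on the left and NTS 1 to 10 in blue on the right of each panel, on linear axes from 0. Lars2 and Alb are high in NTS libraries 7 and 8, Avp in ARC library 9, Prkcd in ARC library 8 and Fos in NTS library 1, Alb also in ARC library 4, while Mbp is lower in every ARC library than in any NTS library.

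A share of genes could be called alike. For 2227 genes (15.5%) the 95% interval of the log2 fold change lay within 1.2-fold of no difference. Those with the highest CPM included Nap1l5, an imprinted nucleosome assembly factor, with 2096, 2409 and 2520.3 CPM in ARC libraries, against 2028, 2374 and 3055 CPM in NTS libraries. Its log2 fold change was -0.04 ± 0.06. Atp1b1, a sodium pump subunit, averaged 1527 ± 48.4 CPM in ARC and 1589 ± 143 CPM in NTS, and Rtn1, a neuronal membrane protein, averaged 1356 ± 47.2 CPM in ARC and 1261 ± 101 CPM in NTS. Aplp1, a relative of the amyloid precursor, averaged 1442 ± 83.7 CPM in ARC and 1291 ± 65.9 CPM in NTS and was called at 0.16 ± 0.05, as was Prkar1a, a regulatory subunit of protein kinase A, at 0.16 ± 0.04. Both differences were called and yet small.

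The comparison was repeated in the 20 libraries of IP118/PY115-treated mice, 10 per region, fitted alone. There 8799 of 13673 tested genes were called (64.4%). Of 13577 genes in that fit and in a fit of the 19 vehicle libraries alone, 8634 were called in vehicle, and 7643 of these (88.5%) were called in the same direction in treated libraries. A further 935 had the same direction without a call, 56 the opposite direction without a call, and none was called the opposite way. Of 1140 genes past 2-fold in vehicle alone, 1131 (99.2%) were called in the same direction and 873 were again past 2-fold. Across genes the 2 sets of log2 fold changes correlated at Pearson r = 0.975 over the 13577 genes, a description over genes that are not independent. Treated libraries gave 11.84 for Agrp, 7.15 for Pomc, 4.93 for Npy, -6.40 for Dbh and -8.14 for Slc6a5, against 11.22, 7.10, 5.52, -6.85 and -7.97 in vehicle. Among named genes that could be followed, 223 kept their direction and call status there, 8 lost their call and 3 turned direction. In a test of whether the regional difference changed with treatment, no gene of 14379 passed by edgeR. The lowest adjusted p was 0.218, and 540 genes had an unadjusted p under 0.05.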

How the data were processed

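The values are whole-number read counts per gene that the authors deposited, in a table with 59 library columns, all used. Per the submitters' processing notes, bcl2fastq 2.20.0.422 and STAR 2.5.2a were used with the mouse build GRCm38. The counting tool, its strand setting and the annotation are not given in the sources used here. Of 21935 gene IDs, 21858 carried a symbol, 77 did not, and 3668 had no count in the 19 libraries.

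Column names were matched to sample labels, and groups were taken from those labels. Counts of all 59 libraries were fitted together by group in edgeR 4.0.16 (R 4.3.3), with TMM normalisation, filterByExpr (minimum count 10, minimum total 15), a robust quasi-likelihood fit and Benjamini-Hochberg adjustment over all 14379 tested genes at 0.05. The test against a 2-fold change was glmTreat, and genes were called alike where the 95% interval lay within 1.2-fold. The fit shares an estimate of spread over all groups. A floor of 3 counts over a group gave the bounds for genes at 0, and covers counting error only. Exon lengths and coordinates came from GENCODE vM21 and promoters from RefSeq (GRCm38.p6).

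Named genes were, in each direction, the 15 with the largest fold change among called genes without overlap and with a mean of at least 20 CPM, the 10 with the highest CPM past 2-fold in each direction, a set of key genes, up to 4 called members in each direction per list, and 5 alike genes of high CPM. Some genes that this rule names are not reported here. The members, lists and this rule were chosen with earlier results of these data known, and the imprinted, thalamic and liver lists after their values were seen. Simulated data held 14379 genes, of which 50 were changed at each size and the rest left unchanged. On them the fit recovered 66% of genes changed by 0.5 on the log2 scale, 86% at 1, 98% at 2 and 100% at 4. It called 0.0705% of unchanged genes. Far fewer genes differed there than in the real contrast, where 61.7% were called, so these rates need not carry over. Alternatives were DESeq2 1.42.0, limma-voom (limma 3.58.1), other scalings, filters, thresholds and covariates, a fit of the 19 libraries alone, the treated libraries alone, and leaving out libraries. Dixon's ratio was searched in each region for single libraries far from the others. Library totals ran from 4546257 to 27766549 counts, which sets the precision of low levels.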

Additional observations from a re-analysis of the deposited data

Results flagged for a closer look

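In a search of 108 gene and region pairs for a single library far from the other libraries of its region (Dixon's ratio above the 95% critical value), 7 were found. Chance alone flags about 1 in 20 pairs, so some of the 7 may be due to chance. The search did not cover every gene named above. It left out Fos, at 75.3 CPM in NTS library 1 against at most 27.1 CPM in the other NTS libraries. Prkcd was also left out, at 171 CPM in ARC library 8 against at most 45.8 CPM in the other ARC libraries. Agrp reached 977.781 CPM in ARC library 6, against an ARC median of 516.004 CPM. Avp reached 225.178 CPM in ARC library 9, with an ARC median of 3.77 CPM, and the same library had the lowest ARC level of Prkar1a, at 1252.33 CPM against a median of 1419 CPM. In NTS library 1, Gcg reached 101.449 CPM with an NTS median of 6.15 CPM, and Mc4r reached 15.598 CPM with a median of 6.51 CPM. Sst reached 369.09 CPM in NTS library 8, where the NTS median was 239 CPM. Ttyh1 reached 1185.5 CPM in NTS library 4, with a median of 1018 CPM. With these libraries included, Agrp, Sst and Ttyh1 did not overlap between regions.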

How the results depend on the processing

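Over the alternatives that changed the tool, scaling, filter, threshold or samples, the number of called genes ran from 7502 (threshold of 0.01) to 9495 (limma-voom), against 8874, and that past 2-fold from 1071 (DESeq2) to 1510 (no filter), against 1295. Leaving out 1 library at a time gave 8629 to 8885 called genes, 1234 to 1302 past 2-fold, 2085 to 2196 alike genes, and a difference in log10 library total of -0.11 to -0.04. The oligodendrocyte score as a covariate was the exception: it left 2321 called genes, 454 past 2-fold and 47 alike. Among named genes called without it, it kept the call and direction of 156, lost the call of 63 and turned the direction of 10. The lost calls include Bhlhe41, C1qb, Cck, Chgb, Cnp, Cox5a, Cox6a1, Dbp, Dcn, Fkbp5, Fosl2, Gcg, Gch1, Glra1, Hba-a1, Hba-a2, Hbb-bs, Igf2, Junb, Kcnab2, Lum, Mbp, Nefm, Nfil3, Nppc, Nr1d2, Nr3c2, Nr4a2, Ntsr2, Pdgfra, Pdk4, Per2, Prkar1a, Pts, Rsph1, Scn9a, Sdhc, Slc10a4, Slc18a2, Slco1c1, Tal1, Th, Thra, Tnr, Tph2, Tsc22d3, Vcan, Zbtb16 and Zic2. Mbp, Cnp and the turned Cldn11 are members of the score itself, so their loss or turn was largely fixed in advance. Among named genes not called without the score, it turned 3 and called Nap1l5, at -0.433 (edgeR adjusted p = 0.0255). Those that turned stood at 0.0929 for Mc4r, 2.98 for Lhx9, 0.39 for Nkx2-2, -0.22 for Calb1, 0.30 for Bcan, 0.0700 for Cldn11, 0.37 for Neu4, 0.54 for Olig1, 1.68 for Ptgds, -0.32 for Kl, 0.27 for Nr1d1, 0.21 for Atp1b1 and -0.11 for Rtn1; Olig1 alone of these passed there. A lost call does not by itself mean a smaller difference. With the score Th stood at 0.77, Junb at 1.01 and Fosl2 at 1.45, at least their size without it. Other lost calls fell close to 0, such as Gch1 at 0.07 and Per2 at 0.03. The cause of these changes was not tested, and score and region cannot be told apart. In the treated libraries Junb stood at -0.21, Fosl2 at -0.0348 and Nap1l5 at 0.00184. Nap1l5, called alike, was also 0.00676 by limma-voom, 0.0387 without NTS libraries 7 and 8, and -0.0625 to 0.00591 when 1 library was left out. DESeq2 lost the call of 1 named gene and limma-voom those of 6. Leaving out NTS libraries 7 and 8 and counting alike genes under each setting were chosen after seeing the data. No paired analysis was possible because the labels tie no library to an animal and replicate numbers follow only the order of samples. Depth limits genes near the floor, where a few counts set the fitted fold change.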
